A study of Mus musculus with 2 samples.

Results

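The genes of glycolysis and of the metabolic response to low oxygen were followed in cultured mouse chondrocytes before mechanical loading and 24 h after it. The set held 33 genes chosen by name for their pathway, of 20660 mouse genes with a probe on the arrays. It covered 4 glucose and lactate transporters, 9 genes of upper glycolysis, 8 genes of lower glycolysis and lactate dehydrogenase, 3 regulators of glycolytic flux and 9 other genes known to respond to hypoxia. The rule that chose them uses pathway membership and no measured value, but the set was drawn up with earlier results of these data known. A gene was measured by its brightest probe, and its other probes were kept as a check.

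Chondrocytes are the cells of cartilage, a tissue without blood vessels in which oxygen is scarce and most energy comes from glycolysis, the breakdown of glucose to pyruvate and lactate. Hypoxia-inducible factors (HIF) are transcription factors that accumulate when oxygen falls, because the prolyl hydroxylases that mark them for destruction need oxygen to work. Their targets include glucose and lactate transporters, nearly every step of glycolysis, the kinase that keeps pyruvate out of mitochondria, and genes for mitochondrial turnover and for the control of pH.

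Articular chondrocytes were taken from C57BL/6J mice aged 6 days and seeded on fibronectin in silicon chambers. After 48 h they were stretched by 10% at 0.5 Hz for 30 min, a regimen called cyclic tensile strain. RNA from cells taken before the loading was hybridised to 1 array and RNA from cells taken 24 h after it to another, both on the same slide. The study asked which genes loading changes in these cells. Both groups came from the same strain, no further treatment is given for either, and the number of mice and chambers behind each RNA is not stated. Primary articular chondrocytes were starved of serum in most of the study's experiments, but it is not stated whether that held for these cells.

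With 1 array per time point there was no replicate error and no test between conditions. The error given beside each value is that of the scanner software for the spots on both arrays, so it covers error within an array only. The cells compared also differed by 24 h of further culture, since no unloaded array from 24 h was analysed here, and loading and time in culture cannot be told apart. In RNA of a whole culture, fewer cells of a type and less RNA per cell cannot be told apart either.

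Both arrays gave similar signal. Of the spots on each array, 59.1% before loading and 57.7% at 24 h were well above background, no spot was saturated, and the 75th percentile of intensity was 466 on both arrays. A gene was counted as detected where its brightest probe was well above background on both arrays, which held for 14222 genes, and as abundant where its mean level also lay above the 75th percentile, which held for 8564. The change of a gene is given as a log2 ratio, 24 h minus before, of its intensity divided by that percentile. Chondrocyte markers were bright at both times, beside fibroblast-like markers that are given below. All 13 chondrocyte markers were detected and abundant, and their median log2 ratio was 0.11, from Col11a1 at -0.82 to Matn1 at 0.56. Col2a1, the chain of the main cartilage collagen, had an intensity of 499543 before and 474876 at 24 h, with a log2 ratio of -0.07, while Acan, the core protein of the main cartilage proteoglycan, had a log2 ratio of 0.34 and Sox9, the master transcription factor of chondrocytes, one of 0.22.

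Every one of the 33 genes was detected, and 29 were abundant. Most were modestly lower 24 h after loading. Of the 33, 25 (75.8%) were lower and 8 higher, where 52.4% of all detected genes were lower. Among the brightest 1423 detected genes, 846 were lower and 577 higher, a larger share of lower genes than over all. The median log2 ratio of the 33 was -0.24, against -0.01 over all detected genes, -0.0035 over the abundant ones and -0.04 over the brightest 1423. The gap between the median of the 33 genes and that of all detected genes was -0.23.

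Few of these changes were large. Past 1.3-fold, 10 genes (30.3%) were lower and 3 (9.09%) were higher, where 11.8% and 9.07% of all detected genes were. The share of lower genes was thus well above the share over all genes, while the share of higher genes was close to it. The excess lay mainly outside glycolysis. Of the 10 lower genes, 6 were among the 9 other hypoxia-inducible genes. Upper glycolysis (9 genes), lower glycolysis (8), the transporters (4) and the flux regulators (3) held 1 each. With each array scaled to its median, or to its spike-in controls, the split was 5 lower and 6 higher, because those scalings raised every ratio by 0.10 and 0.12 in log2. The background then moved too, to 8.27% lower and 14.8% higher with the median and to 7.77% and 16.0% with the spike-ins, and the gap between medians, which such a shift cannot change, remained -0.23. With quantile normalisation and cyclic loess, which can change it, the gap was -0.16 and -0.19. In each, 7 genes (21.2%) were lower past 1.3-fold and 4 (12.1%) higher. Of all detected genes, 10.0% were lower and 10.9% higher with quantile normalisation, and 10.3% and 10.4% with cyclic loess. Past 2-fold, 1 gene was lower, Ankrd37, and 1 was higher, Slc2a3, where 1.83% and 0.668% of all detected genes were.

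Among the 29 abundant genes of the set, 9 (31.0%) were lower past 1.3-fold and 2 (6.90%) were higher, where 7.58% and 6.73% of all abundant genes were. The share of lower genes was thus no smaller without the dim probes. The within-array error of a log2 ratio ran from 0.06 to 0.28 with a median of 0.20. Against that error, 8 genes were lower by more than 2 errors and 4 were higher by more than 2 errors. A further 9 lay within 1 error of no change. Such counts were not made over all detected genes, so whether they are particular to the set was not tested. The gene just past the 1.3-fold limit was Bnip3l at -0.39 and the gene just short of it was Pfkfb3 at -0.37, a difference far below the error of either.

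**Figure D1:**
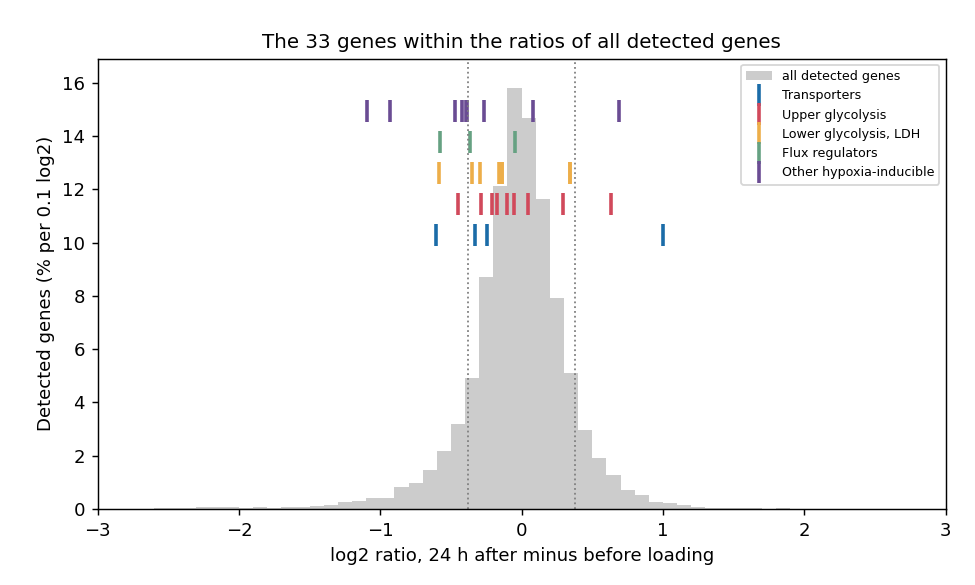
Histogram of the log2 ratio, 24 h after minus before loading, of all 14222 detected genes, with a mark for each of the 33 genes of the set, coloured by step. Dotted lines stand at 1.3-fold. The set lies mainly left of zero, with a median of -0.24, and 10 of its genes lie beyond the left dotted line.

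Repeat probes gave a check within the arrays. The set had 55 probes, of which 54 were detected, and 11 genes had several detected probes. In all 11 the probes had the same sign with the scaling used here. Median and spike-in scaling raise every ratio by 0.10 and 0.12. That is more than the distance from zero of further probes of Hk1 (-0.04), Ldha (-0.08) and Bnip3l (-0.08), whose brightest probes would stay below zero. The range of the log2 ratio among probes of a gene had a median of 0.098 and was widest for Bnip3l, at 0.32. Position on the array was checked as well. Around the brightest probe of each gene, no more than 1 detected spot within 100 µm had changed past 2-fold in the same direction. Among the further probes, the Bnip3l probe at -0.08 had 3 such spots around it, and a further Ldha probe had 2.

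The transporters differed among themselves. Slc16a3, the monocarboxylate transporter through which glycolytic cells export lactate, was lower at 24 h, Slc2a3, a high-affinity glucose transporter, was higher but dim, and the other 2 were modestly lower. Slc16a3 had an intensity of 5214 before and 3430 at 24 h, with a log2 ratio of -0.60 (error 0.20), and its other probe gave -0.58. Slc2a1, the glucose transporter of most cells, had 12241 and then 10329, a log2 ratio of -0.24. Slc16a1, the more widely expressed lactate transporter, had 161 and then 128, a ratio of -0.33 with an error of 0.21, from a probe well under the 75th percentile on both arrays. Slc2a3 lay close to background, with an intensity of 40.6 before and 81.3 at 24 h, and its log2 ratio of 1.00 had the widest error of the set, 0.28. That ratio depended on how background was removed. With the normexp method, which models the background and adds an offset of 50, it was 0.30, so its place past 2-fold rests on the treatment of background.

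In upper glycolysis, the steps from glucose to the triose phosphates, changes were small and mixed. Over its 9 genes the median log2 ratio was -0.10 (0.02 with spike-in scaling), 6 were lower and 3 higher, where 52.4% of all detected genes were lower. Only Hk2 was lower past 1.3-fold and only Aldoc was higher past it, 1 of 9 each way. Over all detected genes these shares were 11.8% and 9.07%, so such counts are close to the background. The hexokinases trap glucose in the cell by phosphorylation. Hk2, the isoform that hypoxia induces, had an intensity of 1579 before and 1156 at 24 h, with a log2 ratio of -0.45, while Hk1, the constitutive isoform, had 9107 and 8076, a ratio of -0.17. Gpi1, the isomerase of the next step, had 42285 and 43610, a ratio of 0.05, and its 3 probes lay between 0.04 and 0.05.

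Phosphofructokinase, which commits sugar to glycolysis, is built from liver, muscle and platelet subunits. Pfkl, the liver subunit, had an intensity of 1931 before and 1585 at 24 h, with a log2 ratio of -0.28, and Pfkp, the platelet subunit, had 932 and 897, a ratio of -0.05 that was above zero in 2 of 8 other settings. Pfkm, the muscle subunit, was printed as 10 spots on each array and is the most precisely measured gene of the set. Its spots lay between 3603 and 4041 before loading and between 4498 and 5021 at 24 h, so that the ranges did not overlap. Its log2 ratio was 0.29 with a within-array error of 0.06, and the ratios of the single spots ran from 0.21 to 0.34 (SD 0.037, n = 10 spots of the same 2 arrays, which are not replicates of the culture).

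The aldolases split the phosphorylated hexose into trioses. Aldoc, the isoform best known from brain, had an intensity of 12408 before and 19217 at 24 h, with a log2 ratio of 0.63 or 1.55-fold, and it was among the 3 genes of the set that were higher past 1.3-fold. Aldoa, the main isoform of muscle and most cells, had 103223 and 96251, a ratio of -0.10 that was above zero in 3 of 8 other settings. Tpi1, which interconverts the trioses, had 30243 and 26091, a ratio of -0.21 with a further probe at -0.27.

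In lower glycolysis, the steps that yield ATP and pyruvate, and at lactate dehydrogenase, 6 genes were lower and 2 higher. Their median log2 ratio was -0.15, but it was close to zero under other scalings, from -0.01 with quantile normalisation to -0.05 with median scaling. Pgk1 alone among these 8 was past 1.3-fold. Of all detected genes, 52.4% were lower and 11.8% were lower past 1.3-fold, so 1 of 8 is close to the background. Pgk1, phosphoglycerate kinase, which makes the first ATP of the pathway, had an intensity of 70078 before and 46695 at 24 h, with a log2 ratio of -0.59. Gapdh, the dehydrogenase just before it and a common reference gene for normalisation of mRNA levels, had 229984 and 180336, a ratio of -0.35, and its 7 probes all lay between -0.35 and -0.23, but the ratio was -0.17 with quantile normalisation. Pgk1 and Gapdh, both at successive steps, were thus lower by more than the median of the set.

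Pgam1, the mutase of the next step, had an intensity of 46312 before and 42003 at 24 h, with a log2 ratio of -0.14. Eno1, the enolase of most cells, had 112282 and 102167, a ratio of -0.14. Pkm, pyruvate kinase, had 38326 and 31217, a ratio of -0.30. These enzymes were slightly lower, only Pkm by more than 1 within-array error, and Eno1 was above zero in 1 of 8 other settings. Ldha, the lactate dehydrogenase subunit that favours lactate formation, had 150251 and 134364, a ratio of -0.16, with its 3 probes between -0.18 and -0.08 and a value above zero in 1 of 8 other settings. Ldhb, the subunit that favours the reverse reaction, had 6834 and 8672, a ratio of 0.34. Eno2, the enolase best known from neurons, had 441 and 559, a ratio of 0.34. Ldhb and Eno2 were the 2 genes of these steps that were higher. Both were short of 1.3-fold here, but Ldhb was past it in 4 of 8 other settings and Eno2 in 2 of 8.

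Several of these genes, among them Gapdh, Aldoa, Pgk1, Ldha and Eno1, have processed copies elsewhere in the mouse genome. Probe sequences were not used here, and whether signal from such copies reached the probes was not tested.

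**Figure D2:**
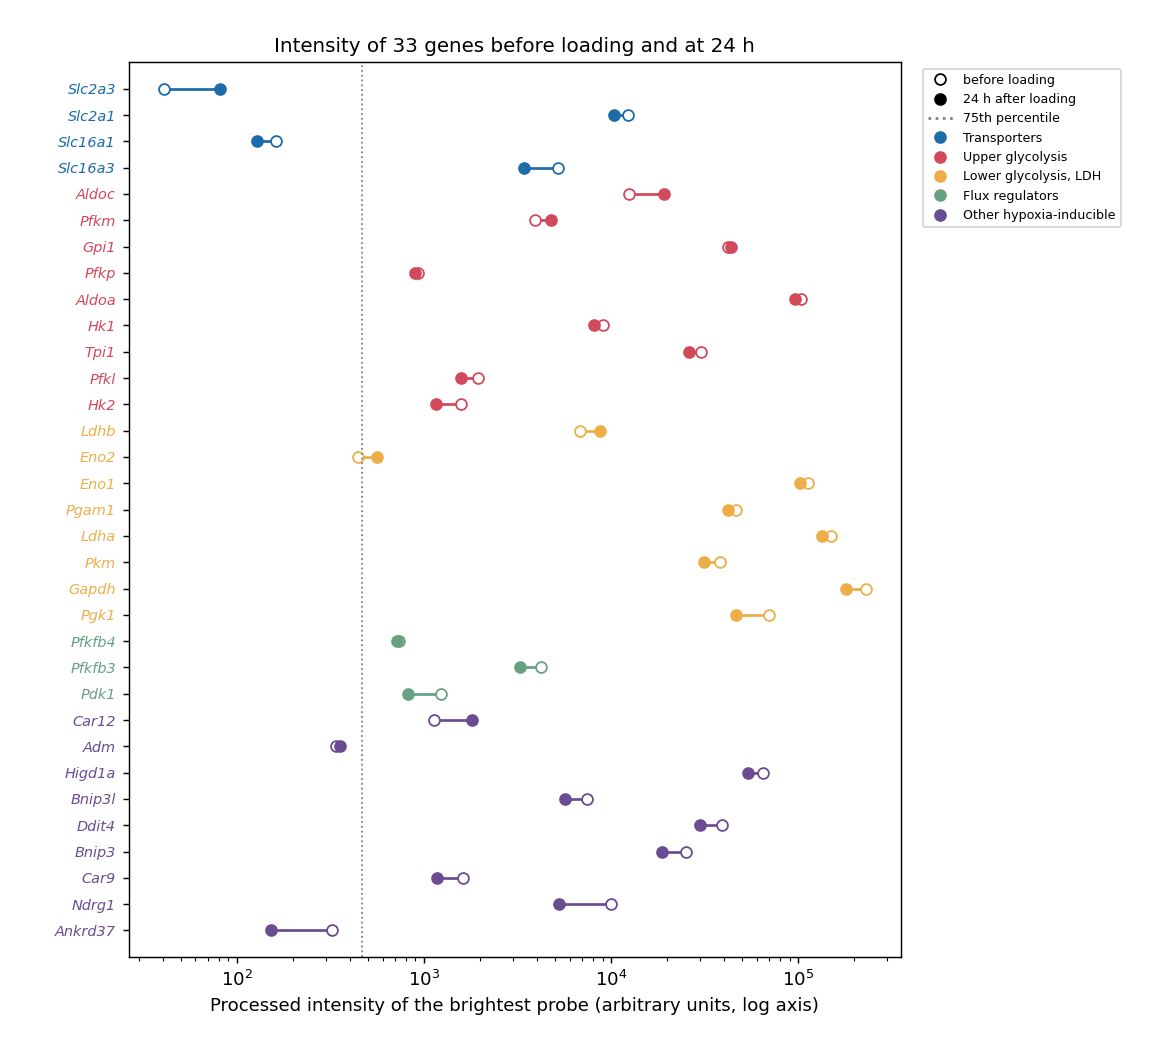
Processed intensity (arbitrary units, log axis) of the brightest probe of each of the 33 genes before loading (open circles) and 24 h after it (filled circles), by step. The dotted line is the 75th percentile of the array before loading. Most filled circles lie left of the open ones, as for Pgk1, Ndrg1 and Ankrd37, and Slc2a3, Aldoc and Car12 lie the other way.

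The 3 regulators of flux had a median log2 ratio of -0.37 and were all lower, Pfkfb4 within its error and above zero in 2 of 8 other settings. Of all detected genes, 52.4% were lower. Pdk1, the kinase that shuts pyruvate dehydrogenase and so diverts pyruvate to lactate, had an intensity of 1228 before and 823 at 24 h, with a log2 ratio of -0.58. Pfkfb3 and Pfkfb4 make and remove the sugar bisphosphate that activates phosphofructokinase. Pfkfb3 had 4218 and 3271, a ratio of -0.37, and a dim further probe with 54.6 and 37.4 gave -0.54. Pfkfb4 had 739 and 715, a ratio of -0.05.

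Of the 9 hypoxia-inducible genes outside glycolysis, 6 were lower past 1.3-fold and Car12 was higher past it, where 11.8% and 9.07% of all detected genes were, and the median log2 ratio was -0.39. With median or spike-in scaling, only Ankrd37 and Ndrg1 of the 6 were lower past 1.3-fold, and the median was -0.30 or -0.28. Ankrd37, an ankyrin repeat protein known mainly as a HIF target, had an intensity of 323 before and 152 at 24 h, with a log2 ratio of -1.09 (error 0.21), which is 2.13-fold lower. Of all detected genes, 1.46% had a lower ratio. Ndrg1, a stress-responsive gene induced by hypoxia in many cell types, had 10022 and 5248, a ratio of -0.93 (error 0.20), 1.91-fold lower, and 2.03% of detected genes had a lower ratio. Ndrg1 was abundant, while the level of Ankrd37 lay below the 75th percentile on both arrays.

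Bnip3 and Bnip3l are receptors for the removal of mitochondria by autophagy. Bnip3 had an intensity of 25093 before and 18767 at 24 h, with a log2 ratio of -0.42, with its 3 probes between -0.57 and -0.34. Bnip3l had 7432 and 5679, a ratio of -0.39, but its 4 probes ran from -0.40 to -0.08. Both were lower by a similar amount at their brightest probes. Ddit4, an inhibitor of mTOR signalling that stress induces, had 39089 and 29717, a ratio of -0.39. Higd1a, a small protein of the mitochondrial inner membrane, had 64658 and 53650, a ratio of -0.27, with -0.26 from its other probe. Adm, the precursor of the vasodilator peptide adrenomedullin, had 337 and 357, a ratio of 0.08 within its error. Adm was thus the only gene of these 9 that was less than 1 error from no change.

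Car9 and Car12 are carbonic anhydrases of the cell surface, which help to keep the pH of the cell while acid is exported. They went opposite ways. Car9 had an intensity of 1614 before and 1167 at 24 h, with a log2 ratio of -0.47, and Car12 had 1125 and 1810, a ratio of 0.69 or 1.61-fold higher.

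**Figure D3:**
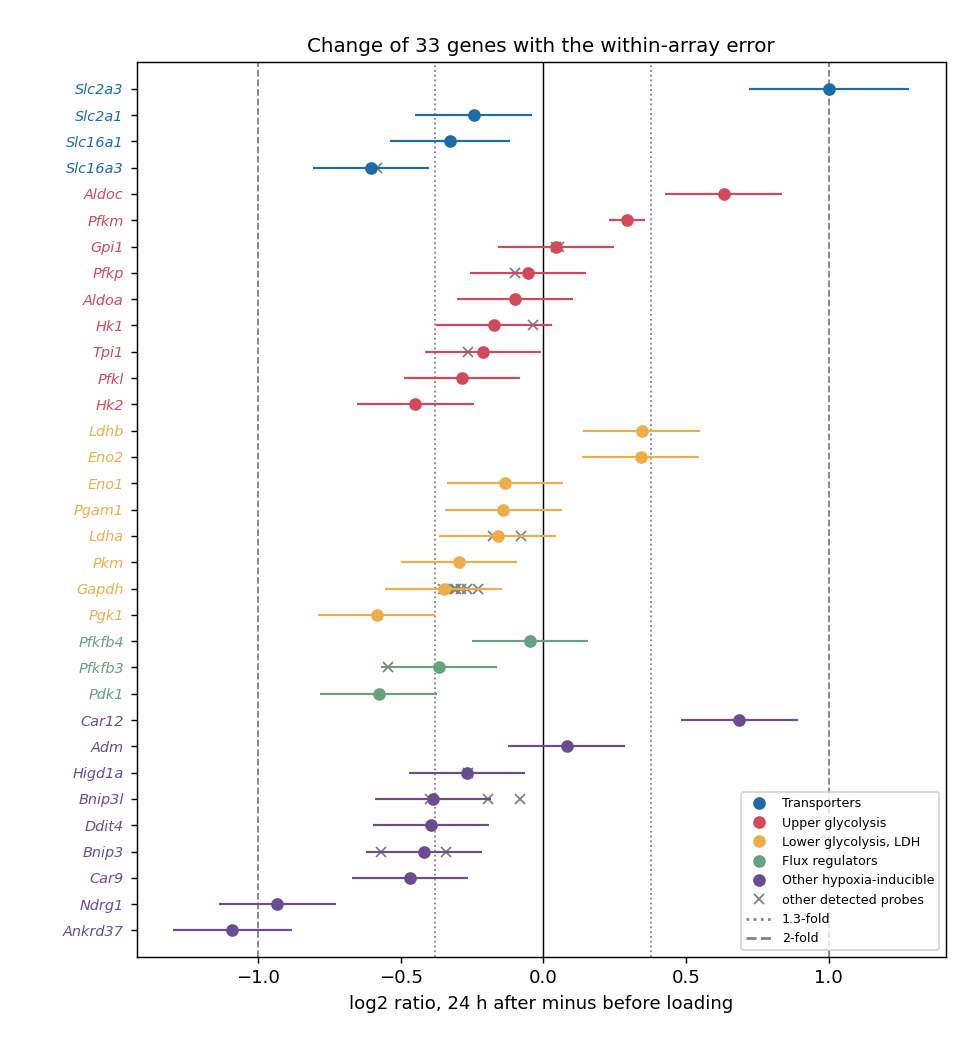
The log2 ratio, 24 h after minus before loading, of the 33 genes by step, each point the brightest probe with a bar of 1 within-array error, and crosses for further detected probes. Dotted lines stand at 1.3-fold and dashed lines at 2-fold. The lowest are Ankrd37 at -1.09 and Ndrg1 at -0.93, and the highest are Slc2a3 at 1.00 and Car12 at 0.69. The range among probes of a gene has a median of 0.098 and is widest for Bnip3l, at 0.32.

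Related genes of the same family can be compared by the difference of their log2 ratios, which no division of a whole array by 1 factor alters. In 12 such pairs, 4 differences were larger than 2 within-array errors. Slc2a3 minus Slc2a1 was 1.25 (error 0.35), but only 0.54 with normexp, since Slc2a3 is dim. Car12 minus Car9 was 1.16 (error 0.29). Aldoc minus Aldoa was 0.73 (error 0.29). Pfkm minus Pfkl was 0.58 (error 0.21). In the last 3 of these pairs both probes were abundant. Over 8 other ways of processing the arrays, these differences lay between 1.00 and 1.16, between 0.62 and 0.73, and between 0.52 and 0.60. Of those ways, only quantile normalisation, cyclic loess and normexp could alter them by more than the rounding of the deposited values. Each of these genes had a single probe and no outlier spot, and the other scalings cancel in a difference.

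The remaining pairs lay within 2 errors. Ldhb minus Ldha was 0.50 and Eno2 minus Eno1 was 0.48 (error 0.29 for each). Pfkm minus Pfkp was 0.35 (error 0.21), Pfkfb4 minus Pfkfb3 was 0.32 and Pfkp minus Pfkl was 0.23. Hk2 minus Hk1 and Slc16a3 minus Slc16a1 were both -0.28, and Bnip3l minus Bnip3 was 0.03. No replicate stood behind any of these differences.

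**Figure D4:**
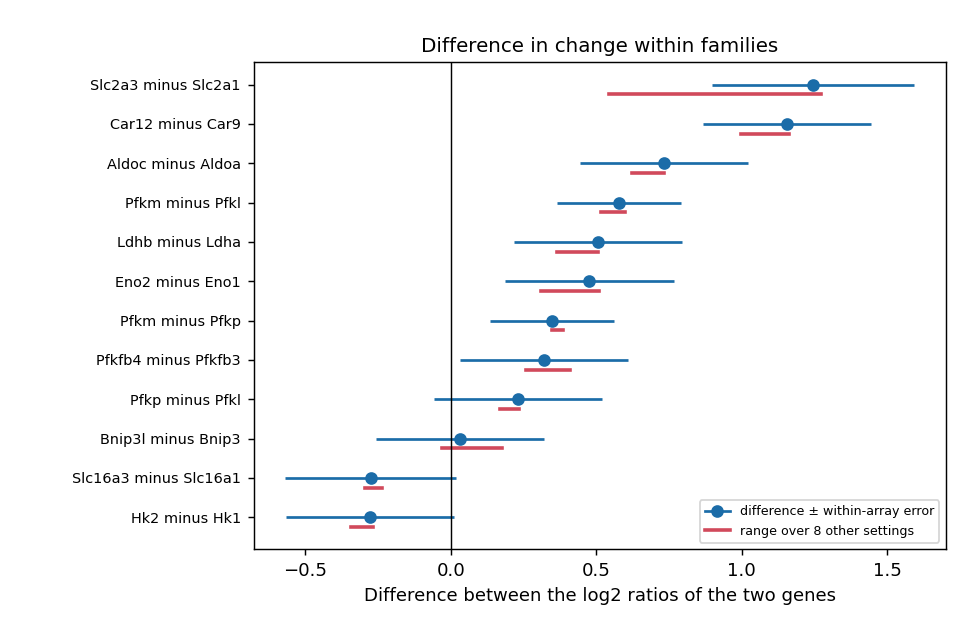
Difference of the log2 ratios of related genes in 12 pairs, with a blue point for the value, a blue bar of 1 within-array error and a red line for the range over 8 other settings. Median and spike-in scaling are among these settings but cannot alter a difference. The differences run from -0.28 for the hexokinase and lactate transporter pairs to 1.25 for the glucose transporter pair, whose range reaches down to 0.54.

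The proximal promoters of these genes were read for the core of the hypoxia response element, the letters ACGTG, on either strand, in RefSeq windows from 250 bases before to 50 bases after each transcript start (GRCm38.p6). Of the 33 genes, 30 had a window, and Ndrg1, Slc2a3 and Bnip3l had none. The core was found in 19 of the 30 genes (63.3%), where it was found in 3148 of the 11314 detected genes with a window (27.8%), and in 22 of their 43 windows (51.2%), where it was found in 24.2% of the windows of detected genes and 19.6% of all windows. The set was named in part as hypoxia-inducible, so such a share describes the choice of genes. Genes of the set had 1.43 windows each and detected genes 1.27, which gives the set slightly more sequence per gene. The E-box CACGTG, which contains the core, was in 5 of the 43 windows (11.6%), against 9.51% of the windows of detected genes and 7.15% of all windows.

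The 19 genes with the core had a median log2 ratio of -0.33, and 17 of them were lower at 24 h. The 11 genes with a window and no core had a median of -0.05, and 6 of them were lower. Of all detected genes, 52.4% were lower. The same split was not made over all detected genes, so whether it is particular to the set was not tested. Genes on both sides of this split went against it. Aldoc and Pfkm had the core and were higher, and Pdk1 had none in its windows and was lower. The stretches of 250 bases before the start are shown for the 3 genes with the core that had the lowest ratios, and for Car12, the abundant gene with the highest ratio, as 5′ to 3′ on the strand of the gene, with the core or its reverse complement CACGT in capitals.
Ankrd37, minus strand of chr8:45999851-46000100 (GRCm38.p6): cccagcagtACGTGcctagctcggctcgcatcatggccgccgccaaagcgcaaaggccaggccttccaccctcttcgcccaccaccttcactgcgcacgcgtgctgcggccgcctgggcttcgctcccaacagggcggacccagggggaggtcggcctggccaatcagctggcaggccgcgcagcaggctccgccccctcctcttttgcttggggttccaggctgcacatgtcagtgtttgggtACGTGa
Slc16a3, plus strand of chr11:120948817-120949066 (GRCm38.p6): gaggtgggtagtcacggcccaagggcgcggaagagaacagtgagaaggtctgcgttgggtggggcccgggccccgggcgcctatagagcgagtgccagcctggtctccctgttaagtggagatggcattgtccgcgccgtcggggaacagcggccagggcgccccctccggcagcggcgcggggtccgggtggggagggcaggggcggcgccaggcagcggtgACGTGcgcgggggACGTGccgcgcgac
Pgk1, plus strand of chrX:106186850-106187099 (GRCm38.p6): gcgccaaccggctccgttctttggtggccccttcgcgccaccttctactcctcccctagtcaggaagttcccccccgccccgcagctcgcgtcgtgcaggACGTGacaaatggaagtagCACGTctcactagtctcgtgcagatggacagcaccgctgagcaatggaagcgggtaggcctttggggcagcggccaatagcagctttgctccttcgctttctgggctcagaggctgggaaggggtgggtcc
Car12, plus strand of chr9:66713436-66713685 (GRCm38.p6): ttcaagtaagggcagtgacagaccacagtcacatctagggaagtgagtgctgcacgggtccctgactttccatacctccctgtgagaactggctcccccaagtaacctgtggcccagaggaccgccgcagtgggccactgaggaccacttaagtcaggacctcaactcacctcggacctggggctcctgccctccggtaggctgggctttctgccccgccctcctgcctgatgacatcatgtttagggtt
In Ankrd37 the cores begin 241 and 6 bases before the start, in Slc16a3 27 and 14 bases before it, and in Pgk1 150 and 131 bases before it, the latter on the opposite strand. Car12 has none in these letters. The genes shown were picked by their ratios, so their letters are no measure of the split. A match is only a run of letters, and no binding was measured in these cells.

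Other known HIF targets, a list also drawn up with earlier results of these data known, leaned the same way. Of 30 such genes outside the set, 29 were detected, 23 were lower and 6 higher, 9 were lower past 1.3-fold and none was higher past it. Of all detected genes, 52.4% were lower, 11.8% lower past 1.3-fold and 9.07% higher past it. The median log2 ratio of the list was -0.21, and -0.11 and -0.09 with median and spike-in scaling. Stc2, a secreted glycoprotein hormone, had an intensity of 4578 before and 2274 at 24 h, with a ratio of -1.01, and was the only gene of the list past 2-fold. The highest was P4ha1, a collagen prolyl hydroxylase subunit, at 0.33. Mxi1 was at background on both arrays.

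The genes that control HIF itself stayed near no change, their 9 detected genes of 10 having a median log2 ratio of 0.04. Egln3, a prolyl hydroxylase that is itself a HIF target and counts in both lists, was the exception, with an intensity of 192 before and 99.3 at 24 h, with a ratio of -0.95. The highest was Hif3a at 0.29. Hif1a and Epas1, the oxygen-regulated subunits, had ratios of -0.09 and -0.04. They are named after their values were seen, and since these subunits are regulated mainly as proteins, mRNA gives no measure of their activity.

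In neighbouring pathways the medians lay near no change, and those of the citric acid cycle, the pentose phosphate pathway and the further isozymes were above zero with median and spike-in scaling. Over the 29 genes of pyruvate entry and the citric acid cycle, the median log2 ratio was -0.04. None was lower past 1.3-fold and only Pdk2, another kinase of pyruvate dehydrogenase, was higher past it, at 0.64. Of all detected genes, 11.8% were lower and 9.07% higher past 1.3-fold. The lowest of the 29 was Fh1, fumarate hydratase, at -0.31. The 7 genes of the pentose phosphate pathway had a median of -0.07, from -0.42 for Pgd, the dehydrogenase that makes its pentose, to 0.16 for Rpe. The 6 detected genes of gluconeogenesis had a median of 0.08, from -0.26 for Fbp1 to 0.32 for G6pc3. Of the further isozymes of glycolysis, which are mostly dim in these cells, 12 of 17 were detected, with a median of -0.05. Past 1.3-fold, 5 of the 12 isozymes were lower and 3 higher, above the 11.8% and 9.07% of all detected genes in both directions. They ran from Hkdc1, a hexokinase-like gene, at -1.43 (intensity 97.4 and then 36.0), lower past 2-fold, to Slc2a10, a glucose transporter of the same family, at 0.58.

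**Figure D5:**
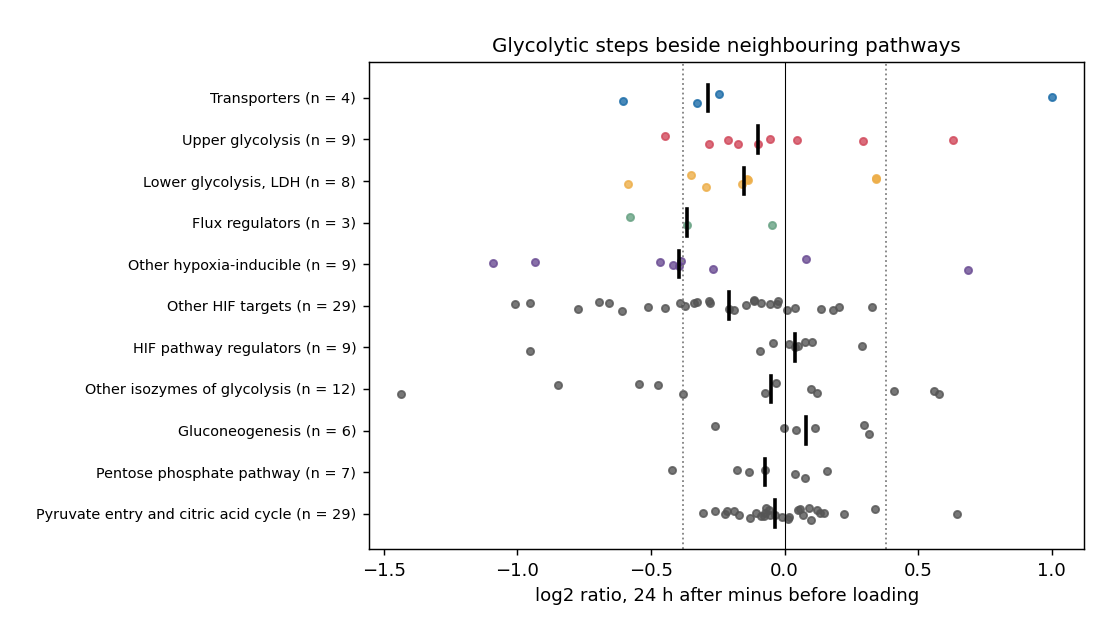
The log2 ratio, 24 h after minus before loading, of each detected gene in the 5 steps of the set and in 6 lists of related genes, with a black bar at the median. Dotted lines stand at 1.3-fold. Medians lie lowest in the other hypoxia-inducible genes (-0.39) and flux regulators (-0.37), and near zero in the citric acid cycle (-0.04).

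Genes of other cell types and of the cell cycle also moved between the arrays, and their part in the changes above was not tested. All 12 genes of the G2 and M phases were lower past 2-fold, where 1.83% of all detected genes were. The 12 ran from Cenpa, a centromere histone, at -2.74 to Cdk1, the mitotic kinase, at -1.27, with a median of -2.24. Their summed intensity was 42176 before loading and 9792 at 24 h. The others past 2-fold were Ccnb2 (-2.45), Ube2c (-2.40), Aurka (-2.34), Tpx2 (-2.28), Ccnb1 (-2.24), Plk1 (-2.24), Cdc20 (-2.18), Bub1 (-1.71), Mki67 (-1.54) and Top2a (-1.45). Of 7 adipocyte markers, all detected, the median was 1.01, and Pparg, at -0.27, was the lowest. Adipoq (2.29), Cfd (1.98), Cidea (1.53) and Plin1 (1.01) were higher past 2-fold, where 0.668% of all detected genes were. Adipoq, Cfd and Plin1 were dim before loading, with intensities of 54.2, 26.9 and 61.7. The summed intensity of the 7 markers was 2963 and then 5141. The 7 fibroblast-like markers, all detected and 6 of them abundant, had a median of 0.01, from S100a4 at -1.44, lower past 2-fold, to Postn at 0.43. They were bright as a list, with a summed intensity of 535093 before and 479322 at 24 h.

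Markers of other cell types were detected in part. Of 5 macrophage markers with a probe, all 5 were detected with a median of 0.21, from Csf1r at -0.15 to Ptprc at 1.14. Ptprc was higher past 2-fold but close to background, with an intensity of 20.9 before and 46.1 at 24 h (error 0.35). The summed intensity of the 5 was 4198 and then 4024, mostly from Csf1r (3646 and then 3288). Of 7 skeletal muscle markers, 3 were detected, from Tnnt3 at -0.78 to Myog at -0.13 with a median of -0.31, their sum was 1680 and then 1256, and Ckm and Myh4 were at background on both. Of 5 endothelial markers, 2 were detected, Kdr at -0.05 and Pecam1 at 0.23 with a median of 0.09, and Cdh5, Tek and Emcn were not, while the sum of 12899 and then 12524 came almost wholly from Kdr. Of 5 erythroid markers with a probe, 2 were detected, Hba-a1 at -0.12 and Slc4a1 at -0.11, and the sum was 138 and then 140.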

How the data were processed

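The authors hybridised Cy3-labelled cRNA to SurePrint G3 Mouse arrays and read the scans with Agilent Feature Extraction 10.10.1.1, per the file headers. The deposited unit used is the processed intensity, from which the software had subtracted background. The deposited value table holds the same intensity rounded and served as an alternative only. The arrays hold 55678 probes, of which 27235 were matched to a gene through RefSeq accessions (GRCm38.p6, used for names and promoter windows).

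Outlier spots on either array (255 spots) were left out, spots of a probe were averaged, and log2 intensity minus the array's 75th percentile was compared, 24 h minus before. With 1 array per time point no test was made. The number of arrays limits the precision, and the depth of an array is its signal over background: the dimmest probes well above background had intensities of 17.3 and 17.8. A gene was called past 2-fold, with 1.3-fold as a second limit.

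The 33 genes and the 14 lists of other genes were chosen with earlier results of these data known. The text names all 33 genes, the detected genes of other lists past 2-fold, the highest and the lowest of each list, and Col2a1, Acan and Sox9. Outside this rule, it names Hif1a and Epas1, after their values were seen. It also names Mxi1, Ckm, Myh4, Cdh5, Tek and Emcn, which were detected on neither array. Quantile, loess, median and spike-in scaling (7 spike-in probes), normexp background correction of the median pixel signals (offset 50), the deposited table and 4 choices on probes were tried as alternatives. The code was tested on simulated data. R 4.3.3 with limma 3.58.1 and Python 3.11.15 were used.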

Additional observations from a re-analysis of the deposited data

How the results depend on the processing

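The median log2 ratio of the 33 genes stayed below zero under all 10 alternatives, from -0.24 to -0.13, and 22 to 25 genes were lower. Not all of these alternatives could have moved the median. All 33 genes were detected on both arrays and none had an outlier spot. Looser detection filters therefore could not alter the median. Keeping outlier spots or using the rounded deposited values could hardly alter it or any single ratio. The alternatives that change scaling or background gave medians from -0.21 with normexp to -0.13 with spike-in scaling. Counts past a fold moved. Past 1.3-fold, 5 genes (15.2%) were lower and 6 (18.2%) higher with median or spike-in scaling, against 10 and 3. Both scalings shift every ratio up. Of all detected genes, 8.27% were lower and 14.8% higher with the median, and 7.77% and 16.0% with the spike-ins. Past 2-fold, 0 genes were lower with median scaling, spike-in scaling and normexp, and 0 were higher with normexp. The 8 alternatives that recompute single genes left 5 of the 10 lower genes past 1.3-fold (Slc16a3, Pgk1, Pdk1, Ankrd37 and Ndrg1) and 2 of the 3 higher ones (Aldoc and Car12). Of the single genes, 5 changed sign in at least 1 of these, all within 1 error of no change in the main values: Pfkp, Aldoa, Eno1, Ldha and Pfkfb4. The median of upper glycolysis, -0.10, reached 0.02 with spike-in scaling. That of lower glycolysis, -0.15, reached -0.01 with quantile normalisation. Slc2a3 was 0.30 with normexp, and Pfkm was 0.39 and 0.41 with median and spike-in scaling. No paired analysis was possible because each time point has a single array. Values near background, as for Slc2a3, are limited by signal.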
